A study of Mus musculus with 6 samples.

Results

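The Sprouty and SPRED genes are a small group of feedback inhibitors of growth factor signalling, and all 7 of them, Spry1, Spry2, Spry3, Spry4, Spred1, Spred2 and Spred3, were taken by name from the 20659 genes that a probe of the array could be matched to. Each was measured by 1 probe. RNA of B16-F1 and of D5.1G4, both mouse melanoma cell lines, was hybridised to 6 Agilent mouse microarrays of 1 colour, 3 for each line. B16-F1 is a line of the B16 melanoma of the C57BL/6 mouse, and the sources used here do not give how D5.1G4 was derived. Cells of both lines were untreated and had been cultured for 24 h in RPMI-1640 with 10% fetal bovine serum in 6-well plates, from 1000000 seeded cells, and were 75% to 95% confluent. Each line stands for itself as 1 cell line, and the labels do not say whether its 3 replicates were separate cultures, so p-values cover no more than the spread between the samples at hand, and that spread may be technical.

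Receptor tyrosine kinases signal through the adaptor GRB2 and the exchange factor SOS to RAS, and from RAS through the kinases RAF, MEK and ERK to transcription factors of the ETS and AP-1 families. Sprouty and SPRED proteins act inside the cell to dampen this chain, and their transcripts are themselves induced by ERK signalling, which makes a negative feedback loop. They share a cysteine-rich domain at their carboxy terminus. Sprouty proteins intercept the chain at GRB2 and RAF, whereas SPRED proteins bring neurofibromin, the RAS inactivator encoded by Nf1, to the plasma membrane. In melanocytes the receptor KIT feeds the same chain, and in humans loss of SPRED1 causes Legius syndrome, which shows as pigmented skin spots.

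Values are log2 of the processed signal minus the 75th percentile of the array, so 0 is the level of that percentile, and differences are B16-F1 minus D5.1G4. The share of spots well above background was 53.4% to 62.0% per array and was highest, at 62.0% and 61.7%, on B16-F1 replicates 2 and 3. These 2 arrays were scanned together (scan 1), B16-F1 replicate 1 was scanned with D5.1G4 replicates 2 and 3 (scan 2), and D5.1G4 replicate 1 was scanned alone (scan 3). Arrays of B16-F1 correlated at 0.983 to 0.989 across probes and arrays of D5.1G4 at 0.986 to 0.993, against 0.939 to 0.956 between the lines, where probes are not independent replicates. On at least 2 arrays of a line, 12 of 12 melanocyte lineage markers were well above background in B16-F1 and 10 of 12 in D5.1G4, where Kit and Ednrb were not. By the same count, B16-F1 had 6 of 8 leukocyte, 2 of 5 endothelial, 2 of 5 keratinocyte and 3 of 7 fibroblast markers, and D5.1G4 had 3 of 8 leukocyte, 2 of 5 endothelial, 3 of 5 keratinocyte and 3 of 7 fibroblast markers. Cd3e, Itgam, Pecam1, Kdr, Krt5, Krt14, Col1a1, Col1a2 and Pdgfrb reached it on every array of both lines, whereas Cdh5, Tek, Emcn, Dcn and Col3a1 reached it on no array, and Ptprc did on 2 B16-F1 arrays and 0 D5.1G4 arrays. The summed signal of the fibroblast list, in units of the 75th percentile, was 1.25 to 1.42 in B16-F1 and 2.81 to 3.23 in D5.1G4. Its markers went both ways: Col1a1 had a difference of 1.73, Col1a2 of -3.74 and Pdgfrb of -3.33. The summed signal of the melanocyte list was 490.1 to 603.7 in B16-F1 and 591.4 to 817.8 in D5.1G4. The part of other cell types in the results below was not tested.

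Of the 7 genes, 3 were well above background on all 6 arrays (Spry1, Spry2 and Spred1). Another 3 were so on too few arrays to be tested (Spry3, Spred2 and Spred3). Spry4 was well above background on all arrays of B16-F1 and, with a spot marked non-uniform left out, on no array of D5.1G4. That spot, on D5.1G4 replicate 1, was itself well above background. The test, limma across 22131 probes, called a probe where the fold was 2 or more and the adjusted p was no higher than 0.05. Of the 4 genes tested, 2 were called higher in B16-F1, Spry1 and Spry4, and 0 were called lower. The background of this comparison was high: 15.7% of all probes tested were called, 7.02% as higher and 8.7% as lower in B16-F1. Spry1, Spry4 and Spred1 had an adjusted p no higher than 0.05 whatever the fold, as had 35.5% of all probes, 15.8% with B16-F1 the higher line. Spry1 and Spred1 had every B16-F1 value above every D5.1G4 value, and Spry4 had so only with 1 D5.1G4 spot left out, as described below. Among probes measured on all 6 arrays, the lines did not overlap for 51.6%, and B16-F1 was the upper line for 24%, a background that does not include Spry4. The median difference of the 4 tested genes was 1.29, or 0.59 with Spry4 set to its bound given below, and over all probes tested it was 0.017. Spry4 passed the detection filter only through B16-F1, so its call and adjusted p, the count of 2 called genes and this median are a description. Its bound of 1.24-fold is under the fold of 2 required for a call. In bulk RNA, fewer cells expressing a gene and less RNA per cell cannot be told apart.

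**Figure D1:**
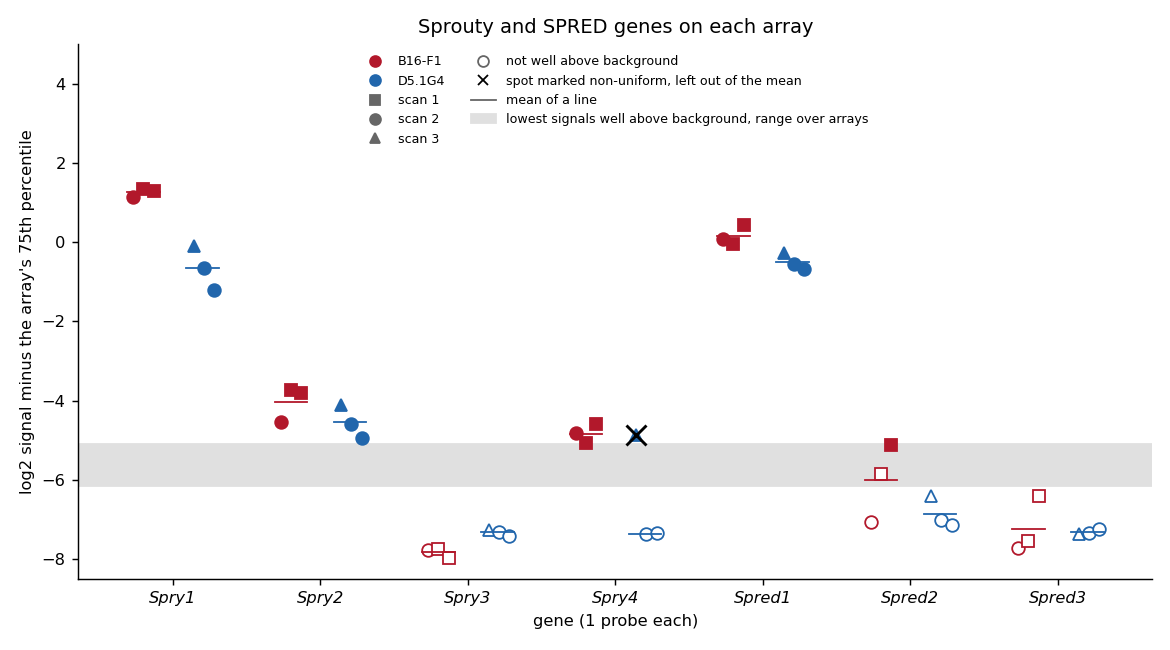
Log2 signal minus the array's 75th percentile (vertical axis) for each of the 7 genes (horizontal axis) on each array, with B16-F1 in red to the left of D5.1G4 in blue, shapes for the scan, open symbols for spots not well above background and lines for the mean of a line. Spry1 in B16-F1 lies between 1.15 and 1.35, above all D5.1G4 arrays, whereas Spry3 and Spred3 have open symbols on every array.

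The sequences of the promoters of the 3 genes measured on all arrays are shown because the transcription of this group is under the control of the pathway it inhibits, through factors with known binding motifs. In the RefSeq promoter table used here (GRCm38.p6 build), 5 of the 7 genes were matched. The 250 bases before the start of transcription are given below on the strand of the gene, and capitals mark the matches to the motifs searched. The Spry1 window is chr3:37639697-37639946 on the plus strand, the Spry2 window is chr14:105896820-105897069 on the minus strand and the Spred1 window is chr2:117120821-117121070 on the plus strand.
Spry1: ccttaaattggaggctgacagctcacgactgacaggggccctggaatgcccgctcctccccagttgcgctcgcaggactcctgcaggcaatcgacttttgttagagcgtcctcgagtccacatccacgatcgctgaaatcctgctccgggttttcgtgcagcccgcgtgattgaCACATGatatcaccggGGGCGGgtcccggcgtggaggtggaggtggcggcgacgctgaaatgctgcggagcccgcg
Spry2: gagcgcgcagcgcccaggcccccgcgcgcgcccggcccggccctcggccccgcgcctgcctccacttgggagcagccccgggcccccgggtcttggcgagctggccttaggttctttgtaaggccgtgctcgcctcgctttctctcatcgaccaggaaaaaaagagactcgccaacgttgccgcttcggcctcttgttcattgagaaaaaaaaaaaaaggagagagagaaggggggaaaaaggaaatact
Spred1: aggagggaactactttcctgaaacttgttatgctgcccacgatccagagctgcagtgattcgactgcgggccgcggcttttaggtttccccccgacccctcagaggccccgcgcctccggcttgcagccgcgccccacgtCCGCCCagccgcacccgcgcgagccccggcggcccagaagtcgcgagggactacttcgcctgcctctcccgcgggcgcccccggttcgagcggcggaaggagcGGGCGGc
The share of G and C was 62.4% in the Spry1 window, 62.4% in the Spry2 window and 70.8% in the Spred1 window, against a median of 52.4% over the same 250 bases of the 32851 promoters of the table. Motifs were searched on both strands over 300 bases, which include 50 bases after the start. Spry1 held the M-box CATGTG, a binding motif of the melanocyte factor MITF, 76 bases before the start, and the SP1 motif GGGCGG 60 bases before it. Spred1 held GGGCGG 110 and 7 bases before the start and again 13 bases after it. Spry2 held none of the motifs in the bases shown and the short ETS motif CCGGAA 33 bases after the start. The other genes with an entry held GGGCGG alone, Spred2 at 40 bases and Spred3 at 163, 135 and 102 bases before the start. Of all promoters of this length, 35.7% held GGGCGG, 14.2% held CATGTG and 14.9% held CCGGAA. The longer ETS motif CCGGAAGT, which contains the short one and was present in 3.89% of promoters, was in none of the 5. The AP-1 motif TGACTCA (5.20% of promoters), the cAMP response element TGACGTCA (1.79%) and the E-box CACGTG (7.15%) were not in these windows either. A match to these letters describes the window and shows no binding.

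Spry1, on chromosome 3, encodes a Sprouty protein that restrains receptor tyrosine kinase signalling in many tissues. Its log2 values were 1.15, 1.35 and 1.30 in B16-F1 replicates 1, 2 and 3, against -0.10, -0.66 and -1.21 in D5.1G4 replicates 1, 2 and 3. The B16-F1 arrays lay close together, and the D5.1G4 arrays were spread over more than 1 log2 unit, all of them lower. The line means were 1.26 ± 0.11 in B16-F1 and -0.65 ± 0.56 in D5.1G4 (SD, n = 3 each). The SD within D5.1G4 exceeded that of 90.8% of the probes tested, and the SD within B16-F1 exceeded that of 25.1%. Spry1 was 3.78-fold higher in B16-F1, a log2 difference of 1.92 with a standard error of 0.28 and a 95% interval of 1.24 to 2.60 (limma, adjusted p = 0.00338). A larger positive difference was found for 468 probes, 2.11% of those tested. Within scan 2, the difference was 2.08 (adjusted p = 0.0215), and without both arrays of scan 1 it was 1.80 (adjusted p = 0.0713). Both settings leave B16-F1 with 1 array that is assumed to vary like those of D5.1G4.

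Spry2, on chromosome 14, encodes the member best known for binding the ubiquitin ligase CBL and GRB2. It was measured near the lower end of the detectable range, at -4.55, -3.74 and -3.82 in B16-F1 and at -4.11, -4.60 and -4.96 in D5.1G4. The lines overlapped, since B16-F1 replicate 1 lay below D5.1G4 replicate 1. The means were -4.04 ± 0.45 in B16-F1 and -4.55 ± 0.43 in D5.1G4 (SD, n = 3 each). The difference of 0.52 had a 95% interval of -0.22 to 1.25, which includes both no difference and a 2-fold one (limma, adjusted p = 0.232). The 2 higher B16-F1 arrays are the pair of scan 1. Within scan 2 the difference was 0.23, and without the arrays of scan 1 it was 0.0030 with an interval of -0.96 to 0.97. The median difference over all probes tested was -0.12 in each of these 2 settings.

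Spry4, on chromosome 18, encodes a Sprouty protein known to act on RAF activation and to bind the kinase TESK1. Its values in B16-F1 were -4.82, -5.08 and -4.60, all well above background. In D5.1G4 replicates 2 and 3 they were -7.37 and -7.35, and neither spot was well above background. The spot of D5.1G4 replicate 1 was well above background but was marked as non-uniform by the scanner software and left out. Its value, -4.87, lay among those of B16-F1. With 3 arrays of B16-F1 and 2 of D5.1G4, the difference was 2.52 (limma, standard error 0.18, adjusted p = 0.000592). This fitted value rests on the 2 D5.1G4 spots that were not well above background, so its size and its p are a description. Because D5.1G4 gave no usable spot well above background, its level there has only a bound, set by the lowest signals well above background on those arrays. By that bound, which covers D5.1G4 replicates 2 and 3 only, B16-F1 was higher by at least 1.24-fold. The bound leaves out the marked spot of D5.1G4 replicate 1, at -4.87, near the B16-F1 mean of -4.83.

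The call of Spry4 depended on the treatment of that 1 spot and also on the background correction. With the spot left out and the normexp background correction, the difference was 0.78, under the minimum fold. With the spot kept and the processing otherwise as reported, the difference was 1.70 and the adjusted p was 0.101 (limma). In the authors' deposited table, which gives a value for this spot too, Spry4 had log2 values of 5.95, 4.86 and 5.57 in B16-F1 and of 5.51, 2.71 and 2.88 in D5.1G4. The same test on the authors' deposited values gave a difference of 1.76 and an adjusted p of 0.130. The median signal of the spot after subtraction of the local background was 4.79%, 3.79% and 5.16% of the 75th percentile in B16-F1 and 2.29%, 0.596% and 0.714% in D5.1G4. On that scale D5.1G4 replicate 1 lay between the other D5.1G4 arrays and all B16-F1 arrays.

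Spry3, the family member on the X chromosome, had no spot well above background. Its signal stood at -7.77, -7.74 and -7.97 in B16-F1 and at -7.26, -7.31 and -7.41 in D5.1G4. The lowest signal well above background on an array was -5.50, -5.73 and -6.17 in B16-F1 and -5.10, -5.09 and -5.21 in D5.1G4, so these spots lay below what the arrays could resolve and have no order.

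Spred1, on chromosome 2, encodes the SPRED protein that brings neurofibromin to the membrane. Its values were 0.08, -0.06 and 0.43 in B16-F1, against -0.28, -0.55 and -0.69 in D5.1G4. Every B16-F1 array was higher than every D5.1G4 array. The means were 0.15 ± 0.25 in B16-F1 and -0.51 ± 0.21 in D5.1G4 (SD, n = 3 each). The difference of 0.66, or 1.58-fold, had a standard error of 0.18 and a 95% interval of 0.225 to 1.096 (limma, adjusted p = 0.0318), and it was not called because it is under the minimum fold. A larger positive difference was found for 16.6% of the probes tested. The adjusted p was over the threshold without B16-F1 replicate 1 (0.0533) or 3 (0.0825) and without D5.1G4 replicate 2 (0.0905) or 3 (0.103). The difference stayed between 0.52 and 0.77 over all 6 omissions. With the scan as a fixed block the difference was 0.70 and the adjusted p was also over the threshold (limma, 0.126). Within scan 2 the difference was 0.70, and without the arrays of scan 1 it was 0.59, each with 1 B16-F1 array. Nf1, the partner of SPRED proteins, had a difference of -0.069 (adjusted p = 0.776), and its sign turned to 0.038 with quantile normalization.

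Spred2, on chromosome 11, was well above background on 1 array only, B16-F1 replicate 3, at -5.13. The other B16-F1 arrays gave -7.07 and -5.86, and the D5.1G4 arrays gave -6.40, -7.03 and -7.14. Spred3, on chromosome 7, had no spot well above background, at -7.71, -7.56 and -6.42 in B16-F1 and -7.37, -7.34 and -7.24 in D5.1G4. The values below background have no order.

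**Figure D2:**
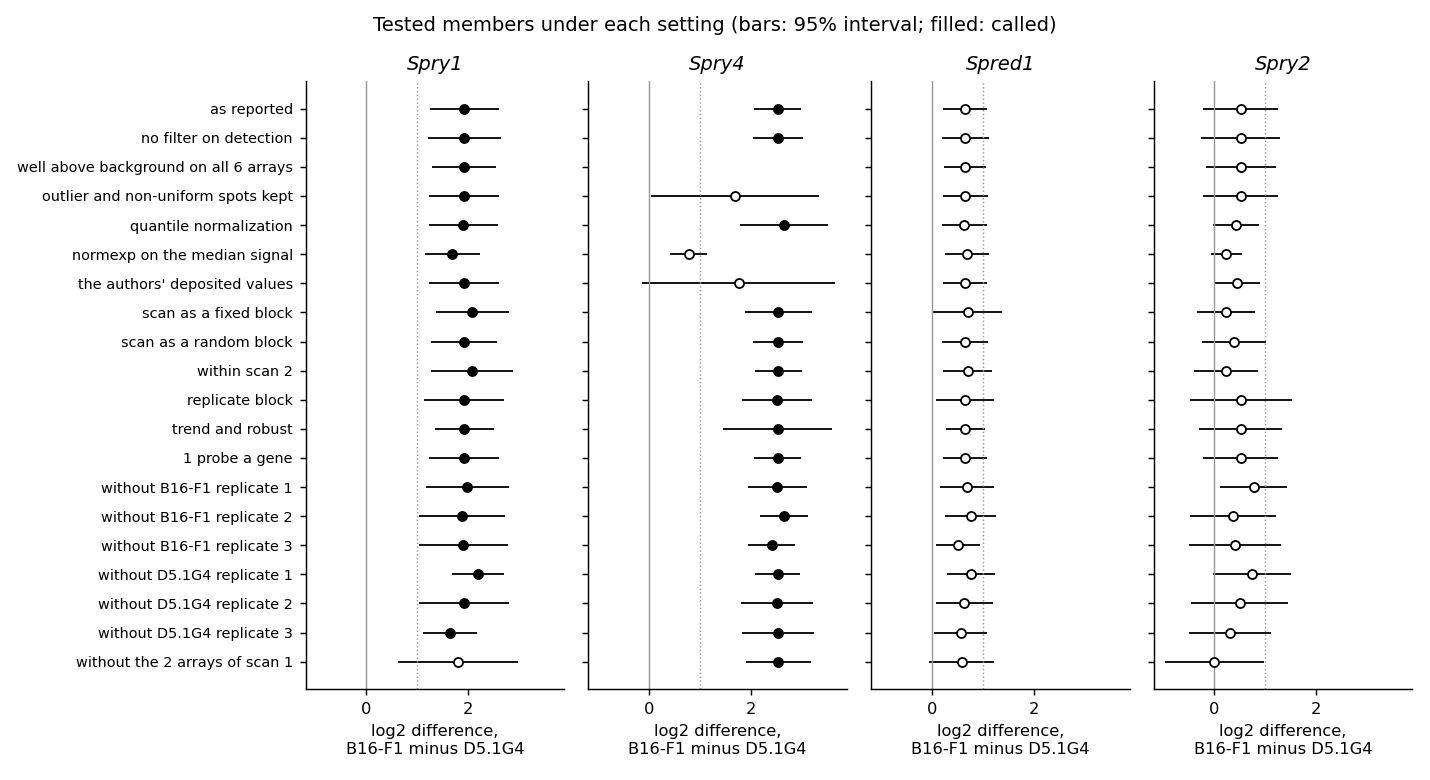
Log2 difference, B16-F1 minus D5.1G4 (horizontal axes), of the 4 tested genes under each processing setting (rows), with 95% intervals as bars, filled symbols where the gene was called and a dotted line at 2-fold. Spry1 stays between 1.64 and 2.20, Spry4 is at 0.78 with the normexp background correction, Spred1 stays under the 2-fold line and Spry2 is called in no setting.

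Whether members differed between the lines by unequal amounts was asked of the 3 genes measured on all arrays, by the difference between 2 probes on the same array, for which the array's scaling cancels. Spry1 minus Spry2 was 5.70, 5.09 and 5.12 in B16-F1 and 4.01, 3.94 and 3.75 in D5.1G4, a shift of 1.40 log2 units without overlap. Spry1 minus Spred1 was 1.06, 1.41 and 0.87 in B16-F1 and 0.19, -0.11 and -0.52 in D5.1G4, a shift of 1.26 without overlap. Both had p = 0.1 in an exact permutation test (two-sided), which is the smallest p that 3 arrays against 3 can give, and 0.15 after adjustment over the 3 pairs. Spry2 minus Spred1 was -4.64, -3.68 and -4.25 in B16-F1 and -3.82, -4.05 and -4.27 in D5.1G4, a shift of -0.14 with overlapping lines (exact permutation p = 0.7, adjusted 0.7). No pair could pass the threshold in this design.

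The genes whose probes were nearest in pattern to each of these 3 were found from the root mean square difference of log2 values centred on each probe's mean over the 6 arrays, among 13673 probes of named genes well above background on all arrays. Nearest to Spry1 were St3gal4, a sialyltransferase, at 0.20 log2 units, Fos, a subunit of AP-1, at 0.24, and H1f2, a linker histone, at 0.24, where the median over all probes was 1.04. Nearest to Spry2 were Slc14a2, a urea transporter, at 0.10, Kcnk13, a potassium channel, at 0.11, and Nwd1 at 0.11, with a median of 0.52. In Spry2 and its 3 neighbours, the arrays of scan 1 were the 2 highest of the 6, and none of the neighbours was called. Nearest to Spred1 were Ssb, the La RNA-binding protein, at 0.045, Hif1a, the hypoxia-responsive transcription factor, at 0.060, and Prkar1a, a regulatory subunit of protein kinase A, at 0.061, with a median of 0.47. The distances are a description over 6 arrays that share scans and lines. Neighbours were chosen for their likeness on these same arrays, so a shared order of arrays follows from the choice.

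**Figure D3:**
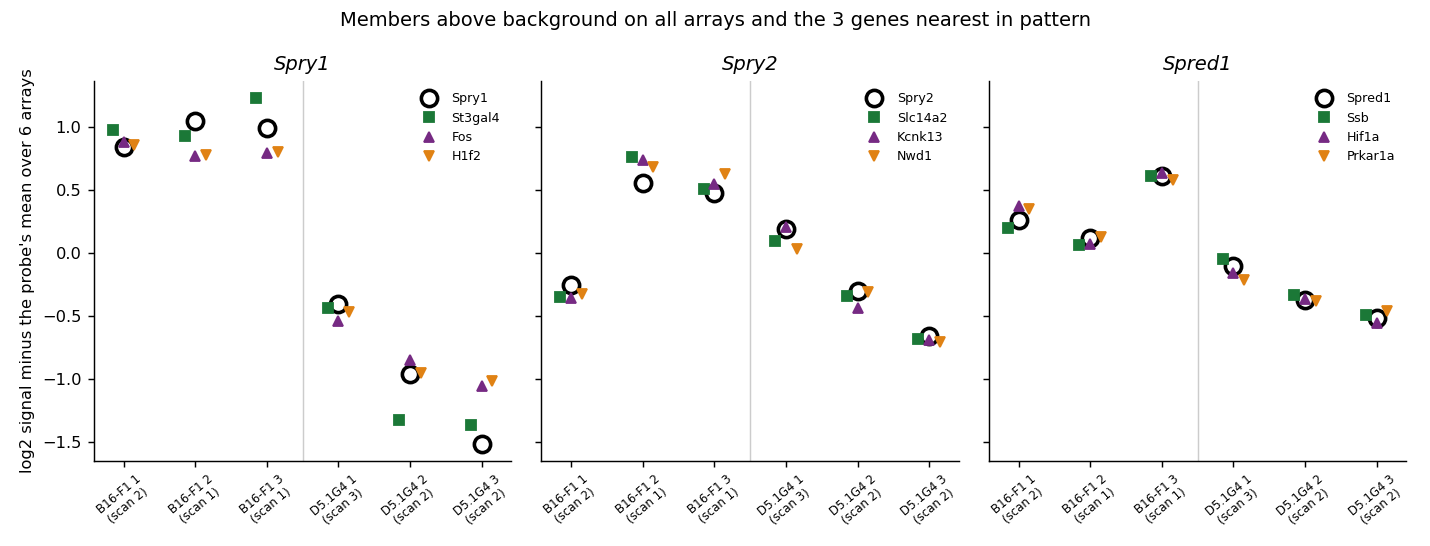
Log2 signal centred on the probe's mean over the 6 arrays (vertical axes), on each array (horizontal axes), for the 3 genes measured on all arrays (open circles) and the 3 genes nearest to each in pattern. Spry1 and its neighbours separate the lines, whereas Spry2 and its neighbours are highest on B16-F1 replicates 2 and 3 and low on B16-F1 replicate 1.

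Around the 7 genes, 111 genes of the pathway were listed in 7 groups by their role, and each was represented by its brightest tested probe. Of the 94 that were tested, 14 were higher in B16-F1 and 12 lower by the same call, 27.7% in all. Over all 13278 genes by 1 probe, 15.8% were called, 7.22% as higher and 8.59% as lower. The median difference was 0.28 over the 94 genes, the same with genes at their bound, and 0.0015 over all genes. The choice of probe bears on these counts: 25 of the 94 genes had several tested probes, and of the 18 of them that were not called, 7 had another probe that was. Among these were Grb2 (1.34), Nras (up to 1.41), Sh3kbp1 (1.64) and Dyrk1a, each with a probe called higher, and Araf (-1.38 to -1.21) and Fgfr4 (-3.02), with probes called lower, named after their values were seen. The lists were chosen with earlier results of these data known, so these counts are a description.

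Among receptor tyrosine kinases, 2 of 12 tested genes rose in B16-F1, 2 fell and 8 were not called, with a median difference of 0.47. Kit, the receptor for stem cell factor, had values of -2.45, -2.87 and -3.05 in B16-F1 and was not well above background in D5.1G4, so that B16-F1 was higher by at least 5.06-fold (adjusted p = 3.83e-05). Fgfr1, an FGF receptor, rose by 2.62 log2 units (adjusted p = 0.000136), and its other probes differed by 0.62 to 2.31. Pdgfrb, a PDGF receptor that is also on the fibroblast list, fell by 3.33, and Igf1r, the receptor for insulin-like growth factor, fell by 1.72. Of 5 tested FGF ligands, 2 fell and 0 rose. Fgf9 was at least 11.9-fold lower in B16-F1 (adjusted p = 6.96e-05), and Fgf21, a metabolic hormone, was at least 3.03-fold lower (adjusted p = 0.000228). Neither was well above background in B16-F1. The adjusted p-values of Kit, Fgf9 and Fgf21 (limma) belong to fitted differences of 4.58, -3.70 and -2.98, which use signals not well above background. They do not test the bounds. With normexp, a background correction with an offset added to every signal, the differences were smaller than these bounds, at 1.75 for Kit, -1.84 for Fgf9 and -0.72 for Fgf21, and Pdgfrb had -2.12.

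Of 17 tested adaptors and RAS regulators, 1 rose, and of 12 RAF, MEK and ERK kinases and scaffolds, 1 rose and 1 fell, with median differences of 0.061 and 0.18. Rasgrp3, an exchange factor that activates RAS, rose by 1.30 ± 0.15 log2 units (standard error, adjusted p = 0.00137). Map2k1, which encodes MEK1, rose by 1.78 ± 0.15 (standard error, adjusted p = 0.000498). Mras, a RAS relative that acts with SHOC2 on RAF, fell by 1.31 at its brightest probe (adjusted p = 0.00145), while its other probes gave -0.35 to 0.50.

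Of 12 tested proteins that bind or regulate Sprouty and SPRED, 1 was called, and the median difference was 0.28. Ppp2r1a, a scaffold subunit of the phosphatase PP2A, which acts on SPRY2, had values of -0.20, -0.57 and 1.15 in B16-F1 and of -1.44, -1.36 and -1.65 in D5.1G4. Its difference of 1.61 (adjusted p = 0.0311) was no longer called with the scan as a fixed block (adjusted p = 0.257) or without any 1 of the D5.1G4 arrays (0.0725, 0.0753 and 0.0965). Of the kinases that act on or bind Sprouty proteins, Dyrk1a had a difference of 0.70 at its brightest probe, which was not called, and 1.17 at its other probe, which was, and Tesk1 had -0.81 and was not called. Lztr1, an adaptor for the breakdown of RAS proteins, was not called either, at 0.54. Cbl had no spot well above background.

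Genes listed as other feedback inhibitors were called in both directions, with a median difference of -0.045. Of 16 tested, 3 rose, 5 fell and 8 were not called. The list was drawn broadly, and phosphatases for JNK and p38 and Flrt3 are on it, so not all its genes inhibit this chain. Il17rd encodes SEF, an inhibitor of FGF signalling at the membrane. It was higher in B16-F1 by at least 9.34-fold, since it was not well above background in D5.1G4. The adjusted p of 8.65e-05 (limma) belongs to its fitted difference of 3.41 and does not test that bound. Normexp gave a difference of 1.72, under the bound. Dusp6, the phosphatase that inactivates ERK in the cytoplasm, had values of 3.50, 3.20 and 3.14 in B16-F1 and of 1.58, 1.42 and 1.30 in D5.1G4, and rose by 1.85 (adjusted p = 0.000382). Dusp7, its relative, rose by 1.12 (adjusted p = 0.00223). Flrt3, a membrane protein that interacts with FGF receptors, fell by 3.19 (adjusted p = 7e-05), and its other probes gave -3.51 to -3.14. Dusp10, a phosphatase for JNK and p38, fell by 2.70, and Lrig1, a membrane inhibitor of ERBB receptors, fell by 2.54. Dusp8, another phosphatase for JNK and p38, had values of -2.75, -2.26 and -2.06 in B16-F1 and of 0.10, -1.30 and -1.36 in D5.1G4, where replicate 1 stood apart, and fell by 1.503 (adjusted p = 0.037). Dusp8 was not called without the arrays of scan 1, which leaves B16-F1 with 1 array. Its adjusted p was over the threshold without any 1 of the B16-F1 arrays or D5.1G4 replicate 2. The other Dusp8 probe gave -1.34 and was called lower as well.

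Among transcription factors and targets downstream of ERK, 6 of 20 tested genes rose, 2 fell and 12 were not called, with a median difference of 0.53. Etv5 and Etv4, ETS factors that FGF signalling induces in many tissues, rose by 4.32 (adjusted p = 5.52e-05) and 1.72 (adjusted p = 0.0029), although the other probe of Etv4 gave 0.64 and normexp gave 1.08 for Etv4. Fos rose by 1.63 (adjusted p = 0.000761) and Elk3, an ETS factor that ERK phosphorylates, by 1.31 (adjusted p = 0.00166). The ephrin receptors Epha4 and Epha2 fell by 1.39 and 1.20, and Epha2 was not called within scan 2, where its difference was -0.79. Outside the lists, Mitf, the melanocyte factor whose motif was searched above, had a difference of 0.36 at its brightest probe (adjusted p = 0.0958). The other Mitf probe gave 0.64 and was not called. Actb had -0.41 (adjusted p = 0.0419), under the minimum fold.

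**Figure D4:**
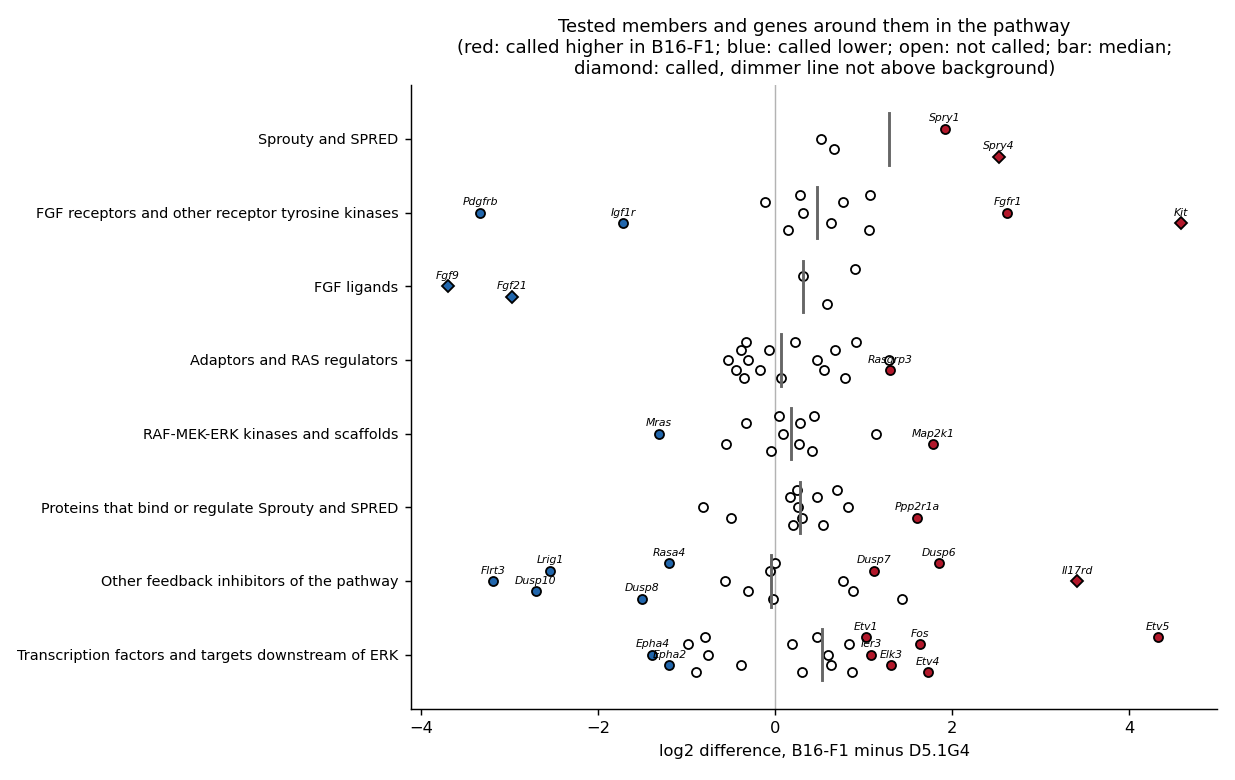
Log2 difference, B16-F1 minus D5.1G4 (horizontal axis), of the tested members and of the tested genes in 7 lists of the pathway (rows), red where called higher, blue where called lower, open where not called, with bars at the median of a row and diamonds for called genes whose dimmer line was not above background, for which the point is a fitted value and no bound. The list of other feedback inhibitors spreads from Flrt3 at -3.19 to Il17rd. Of the 17 adaptors and RAS regulators, 16 are shown as not called.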

How the data were processed

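RNA of 3 B16-F1 and 3 D5.1G4 samples was measured, and groups and replicate numbers were read from the sample titles. The deposited scanner files give spot intensity on a linear scale, background-subtracted and detrended within the array with Agilent Feature Extraction 11.0.1.1, per the file headers. The authors' own table holds log2 values of 22147 probes. Its scale was found by comparison with the scanner values (r of 0.999 or more with its own array, column medians of 9.71), and the sources used here do not give its normalization. All per-sample columns were mapped.

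The log2 intensity minus the 75th percentile of the array was used for 39429 probes. Spots marked non-uniform or outliers (0.67% to 1.58% per array) were treated as missing, spots of a probe were averaged, and 0 spots were saturated. Accessions were matched to RefSeq, with 27234 probes (69.1%) matched to 1 gene, 0 to several and 12195 to none. Probes well above background on at least 3 of 6 arrays were tested with limma 3.58.1 in R 4.3.3 (lmFit, eBayes, 2-sided, Benjamini-Hochberg over all probes), and all adjusted p-values are from it. The number of arrays limits the precision. Where a line had no spot well above background, "at least" gives the brighter line's mean over a floor for the dimmer line, which averages over its arrays whichever is higher, the probe's signal or the lowest signal well above background on that array. The normexp alternative used the median signal of a spot with an offset of 50, in place of the mean signal that had been planned. The procedure was tested on simulated data.

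Named genes are all members, the 3 nearest in pattern to each member measured on all arrays, at most 4 called genes each way from each list, and Dusp6, Nf1, Mitf and Actb. Uncalled list genes and markers were named as examples after their values were seen. For 1 list gene, no value is reported here. The members and lists were chosen with earlier results of these data known.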

Additional observations from a re-analysis of the deposited data

Results flagged for a closer look

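The spot of Spry4 on D5.1G4 replicate 1, marked as non-uniform and left out of the comparison, was itself well above background. It gave -4.87, above the -7.37 and -7.35 of the other D5.1G4 arrays, whose spots were not well above background. Spred2, which was not tested, was well above background on B16-F1 replicate 3 alone, at -5.13.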

How the results depend on the processing

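With the normexp background correction 1951 probes were called, and 7861 with no minimum fold, against 3478 as reported. The count of called members, 2 as reported, was 1 with detection required on all 6 arrays (which leaves Spry4 untested), with marked spots kept, with normexp, with the authors' deposited values and without the 2 arrays of scan 1, an omission chosen after seeing the data. With no minimum fold, 48 pathway genes were called and Spred1 passed at its difference of 0.66. Spry1 missed the threshold without the arrays of scan 1 (1.80). Spry4 missed it with marked spots kept (1.70), with the authors' deposited values (1.76) and, by the fold, with normexp (0.78). The sign of Nf1 turned with quantile normalization (0.038), normexp (0.074) and the authors' deposited values (0.037). Leaving out 1 replicate at a time gave 3162 to 4168 called probes, 2 called members in each case, 23 to 29 pathway genes, and differences of 1.64 to 2.20 for Spry1, 0.32 to 0.77 for Spry2, 2.41 to 2.65 for Spry4, 0.52 to 0.77 for Spred1 and -0.16 to 0.098 for Nf1. Spry2 minus Spred1 shifted by -0.40 to 0.080. The marked Spry4 spot was missing in each of these fits, so the omissions could not test its effect on the call of Spry4. Spry4 passed the detection filter only through B16-F1, so its part in the counts of called members is a description. With normexp, Kit (1.75), Il17rd (1.72) and Fgf9 (-1.84) stayed called but under the bounds given for them. Normexp also ended the calls of Fgf21, Dusp7, Fos, Epha4 and Epha2, and Dusp7 was not called without B16-F1 replicate 3. The cause of these changes was not tested. Deviations from the line mean correlated at -0.38, -0.030 and -0.31 between same-numbered arrays. No same-numbered arrays shared a scan, so these correlations cannot decide whether replicate numbers paired the samples. With the replicate block 3175 probes and 2 members were called. In that fit (limma) Spry1 had an adjusted p of 0.0209, Spred1 0.0956, Ppp2r1a 0.0734 and Dusp8 0.104. The median difference of all probes was -0.13 with the scan as a fixed block, -0.12 within scan 2, -0.12 without the arrays of scan 1 and -0.16 with no detection filter. The member differences in these settings are read against that shift. Among them are Spry2 at 0.23 within scan 2, and Spry2 at 0.0030 and Spry1 at 1.80 without the arrays of scan 1.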
